A study of Mus musculus with 2 samples.

Results

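Class I MHC presentation was followed through 10 genes: H2-K1, H2-D1, B2m, Tap1, Tap2, Tapbp, Psmb8, Psmb9, Psme2 and Nlrc5. They were taken by symbol from the 33696 genes counted in each of 2 single-cell libraries, and all 10 had UMIs (unique molecular identifiers, each standing for 1 counted RNA molecule) in every cell class described here. Their levels in tumour cells were set against those in T, NK, B, macrophage, dendritic and fibroblast cells, and the library from Dusp2-deficient mice against the library from wild-type mice.

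The class I pathway shows peptides from inside a cell to CD8 T cells. The proteasome cuts proteins, with the immunoproteasome subunits Psmb8 and Psmb9 replacing constitutive ones and the activator subunit Psme2 opening the particle. The transporter Tap1 with Tap2 carries the peptides into the endoplasmic reticulum, where tapasin (Tapbp) helps to load them onto a heavy chain, H2-K1 or H2-D1, bound to the light chain B2m. Nlrc5 is the transcriptional co-activator of this gene set, most of the genes are induced by interferons, and many tumours are known for low levels of them.

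The cells came from LLC tumours (Lewis lung carcinoma, a transplantable mouse line) carried by wild-type mice (WT) or by Dusp2-/- mice (KO). Dusp2 is a phosphatase of MAP kinases that activated T cells induce. There was 1 library for each genotype, made with 10x 3' chemistry and labelled as lymphocytes from the tumour, with total RNA as the molecule for WT and polyA RNA for KO. The sources used here do not give the age or sex of the mice, pooling of animals, any sort of the cells or the deleted part of Dusp2. With 1 library per genotype there is no replicate check and no test, and genotype cannot be told apart from animal, tumour or library preparation. All intervals are 95% intervals and cover counting error only.

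Class I promoters are known to hold short elements for interferon and NF-kappa B factors. The promoters were searched for fixed letters of such elements to show which members share them. RefSeq promoter entries (GRCm38.p6) were found for 8 of the 10 genes, without Tap2 and Nlrc5. In the 250 bases before the start, on either strand, the kappa B motif, shown in capitals in the first lines below, stood in H2-K1 and H2-D1 and in 22 of 27025 genes listed (0.0814%). The interferon element core GAAANNGAAA stood in B2m alone among the members (3.04% of all genes), and the gamma-interferon element TTCNNNGAA in Psmb8 alone (7.18%). A match is only a match of letters, not a bound site. The shares count these exact letters only. Variants were not searched, so a promoter without a match may still hold the element in another form. The stretches below show the matches in capitals, on the strand of the gene. They are chr17:34000348-34000487 (minus strand, up to the start of H2-K1), chr17:35262913-35262942 for H2-D1, chr2:122147487-122147685 (up to the annotated exon of B2m) and chr17:34198088-34198116 for Psmb8, the last 3 on the plus strand.
H2-K1: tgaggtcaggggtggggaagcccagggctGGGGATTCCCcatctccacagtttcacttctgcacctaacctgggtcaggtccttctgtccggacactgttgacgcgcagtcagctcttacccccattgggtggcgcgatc
H2-D1: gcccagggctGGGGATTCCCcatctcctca
B2m: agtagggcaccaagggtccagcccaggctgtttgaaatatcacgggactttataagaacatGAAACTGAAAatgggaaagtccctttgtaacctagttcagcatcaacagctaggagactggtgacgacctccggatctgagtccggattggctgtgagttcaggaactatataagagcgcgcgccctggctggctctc
Psmb8: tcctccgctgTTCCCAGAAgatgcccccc
Set level at the shared motif, the H2-K1 stretch and its counterpart before H2-D1 were identical at 127 of 140 bases (90.7%). The heavy chains are also alike in their coding parts, so reads from them could be miscounted. In the GENCODE M21 transcripts, however, the last 500 bases of H2-K1, where 3' reads fall, shared 0 of 441 runs of 60 bases with H2-D1, against 55 of 1560 over the whole transcript. Of the 33696 gene identifiers, 31961 (94.9%) were in GENCODE M21, and coordinates here serve for location only.

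After filters on cells and doublets, 9002 WT and 11359 KO cells were kept, and 97.6% and 93.9% of them fell into the 7 classes. Tumour cells were those with at least 3 UMIs of Hmga2 and Rhox5 together, 1596 in WT and 1582 in KO. The other classes were clusters named from marker genes, so each name stands for cells like that type. They held 1320 and 2285 T, 635 and 344 NK, 9 and 3866 B, 4592 and 1950 macrophage, 530 and 523 dendritic and 108 and 120 fibroblast cells. Because the WT library held 9 B cells, B cells are described in KO and not compared between libraries. The libraries shared 31 cell barcodes. Median depth per tumour cell was 27950 UMIs in WT and 18570 in KO, and the medians of the other classes lay between 3646 and 9592. Levels are therefore given as CPM, in which the UMIs of a gene are divided by all UMIs of its class and set to the same total. Few cells lay near the tumour gate, with 63 WT and 142 KO cells at 3 to 7 UMIs against 1533 and 1440 at 8 or more. Just outside the limit, at 2 UMIs, lay 106 and 116 cells, and just inside it, at 3 UMIs, 14 and 32. Dusp2 itself was at 76.6 CPM in tumour cells of the WT library and 76.1 in those of the KO library. In KO it was between 0.907 and 2.29 CPM in the other 6 classes, where WT had 20.4 to 1102, so the KO label held in host cells, while the gated tumour cells carried Dusp2 in both libraries. The leukocyte gene Ptprc was at 7.34 and 15.2 CPM in tumour cells, against 452 to 2318 in T, NK, B, macrophage and dendritic cells.

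H2-K1 (chr17:33996017-34000347) encodes the K heavy chain and was low in tumour cells. WT H2-K1 levels were 921 CPM in tumour, 3566 in T, 3503 in NK, 2527 in B, 1646 in macrophage, 2010 in dendritic and 1346 in fibroblast cells. KO H2-K1 levels were 936, 2848, 3283, 934, 1773, 2064 and 1124 CPM in the same order. Tumour cells were the lowest class in WT and shared the lowest place with B cells in KO (interval 926 to 946 for tumour and 920 to 947 for B cells). T and NK cells, the highest in WT, had overlapping intervals (3523 to 3610 and 3442 to 3565).

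H2-D1 (chr17:35262730-35267499), the D heavy chain, did not follow H2-K1. WT H2-D1 levels were 2085 CPM in tumour, 2801 in T, 2903 in NK, 1486 in B, 1905 in macrophage, 2449 in dendritic and 1258 in fibroblast cells. KO H2-D1 levels were 2509, 2461, 3204, 1078, 2469, 2677 and 1480 CPM. Tumour cells thus stood in the middle of the order for this chain, the fourth class in WT and the third in KO. On the log2 scale, tumour over T cells was -1.95 for H2-K1 and -0.43 for H2-D1 in WT, and -1.61 and 0.03 in KO. Against macrophages the difference was -0.84 for H2-K1 and 0.13 for H2-D1 in WT, and -0.92 and 0.02 in KO. In KO the H2-D1 intervals of tumour cells (2492 to 2525 CPM) and of T cells (2431 to 2492 CPM) touched, and the KO ratios of H2-D1 over T cells (-0.09 with marker gates per cell) and over macrophages (-0.13 with median-ratio scaling) took the other sign under these settings.

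B2m (chr2:122147686-122153083), the light chain that every class I heavy chain needs, lay between the heavy chains in its pattern. WT B2m levels were 1432 CPM in tumour, 3146 in T, 3192 in NK, 1576 in B, 2447 in macrophage, 2352 in dendritic and 1840 in fibroblast cells. KO B2m levels were 1787, 2773, 3418, 1203, 2962, 3115 and 1865 CPM. Tumour cells were the lowest of the 7 in WT, though not apart from the 9 B cells (1180 to 2061 CPM), and in KO they stood above B cells and near fibroblasts (1773 to 1801 and 1769 to 1965 CPM).

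**Figure D1:**
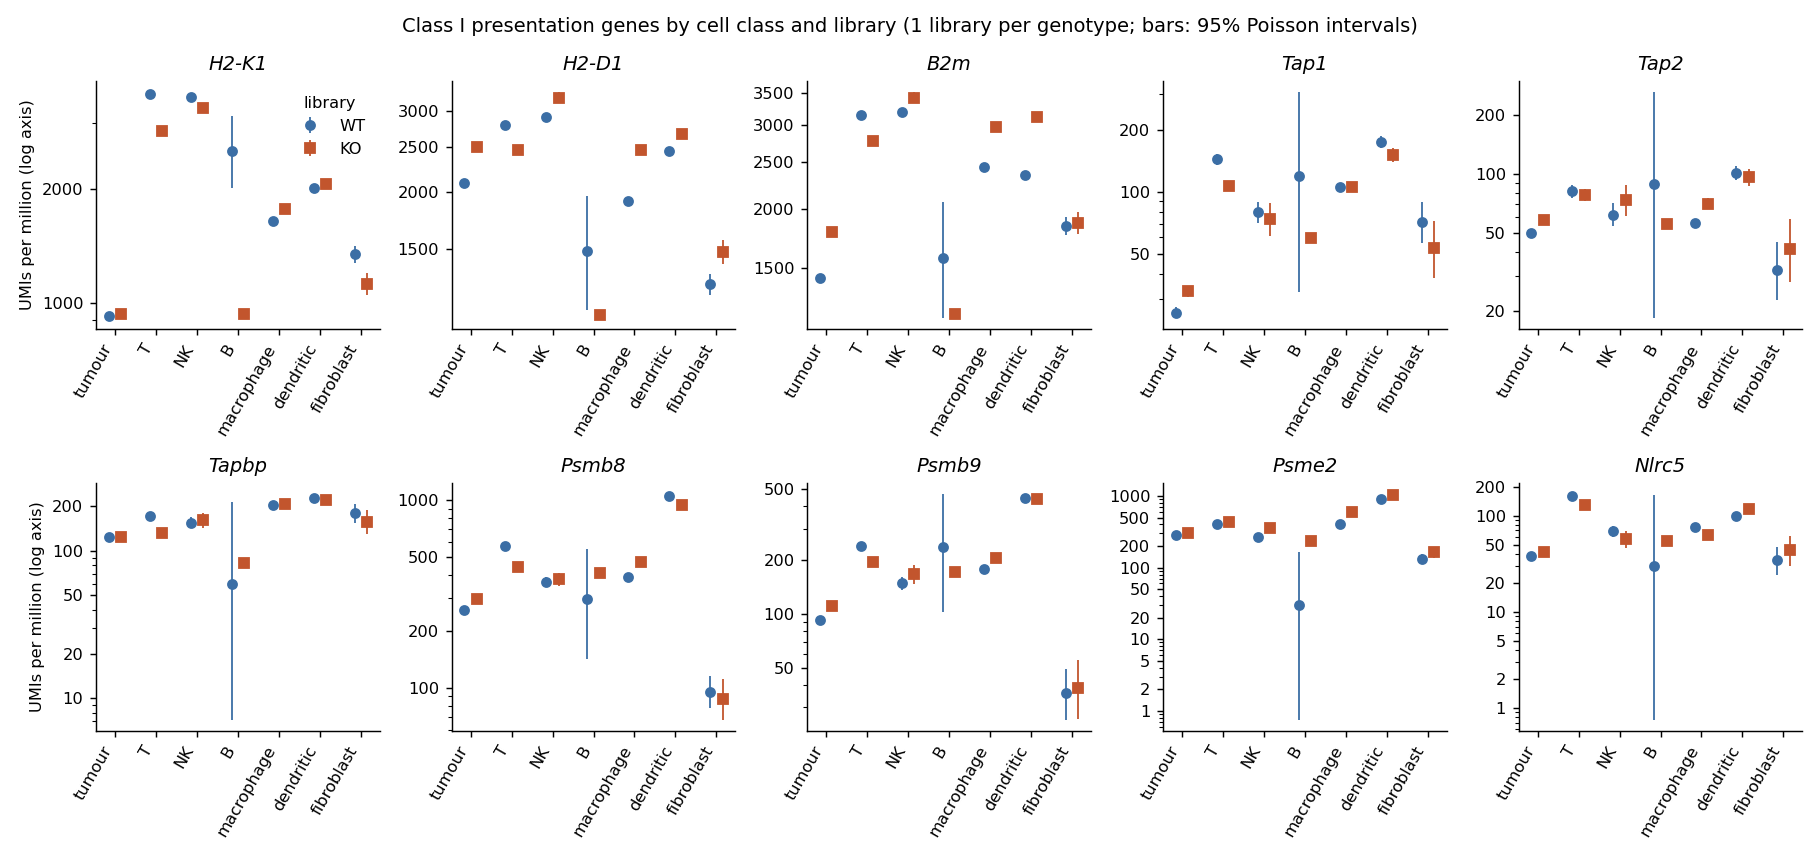
Level of each of the 10 genes (CPM on a log axis) in the 7 cell classes, with WT as circles and KO as squares and bars for the 95% Poisson interval. Tap1 was at 25.8 and 32.7 CPM in tumour cells and above 50 in every other class, while H2-D1 in tumour cells lay among the other classes; the wide WT bars of B cells come from 9 cells.

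Tap1 (chr17:34187553-34197225) encodes the TAP1 subunit of the peptide transporter and showed the largest gap between tumour and other cells among the members. WT Tap1 levels were 25.8 CPM in tumour, 144 in T, 79.6 in NK, 119 in B, 105 in macrophage, 175 in dendritic and 71.3 in fibroblast cells. KO Tap1 levels were 32.7, 107, 73.8, 59.9, 105, 151 and 53.1 CPM. Tumour cells were the lowest class in both libraries, and their intervals (24.4 to 27.4 and 30.9 to 34.7 CPM) overlapped with no other class of the same library. Dendritic cells were the highest.

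Tap2 (chr17:34203527-34216321), the partner subunit, lies near Tap1 on the chromosome with Psmb8 between them, yet its gap was small. WT Tap2 levels were 49.8 CPM in tumour, 81.3 in T, 62 in NK, 89.2 in B, 56.3 in macrophage, 101 in dendritic and 32.4 in fibroblast cells. KO Tap2 levels were 58.2, 78, 73.2, 55.2, 70.3, 95.9 and 41.2 CPM. Over the geometric mean of the other 6 classes, tumour cells were at -0.41 (WT) and -0.19 (KO) on the log2 scale for Tap2, against -2.09 and -1.39 for Tap1. The WT means include the 9 B cells, with 3 UMIs of Tap2 and 4 of Tap1. The transporter is made of both chains, and tumour cells fell further short for Tap1 than for Tap2.

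Tapbp (chr17:33915899-33929292), the loading chaperone tapasin, varied least across the classes apart from B cells. WT Tapbp levels were 124 CPM in tumour, 173 in T, 155 in NK, 59.5 in B, 203 in macrophage, 229 in dendritic and 180 in fibroblast cells. KO Tapbp levels were 125, 132, 161, 82.4, 208, 221 and 157 CPM. Tumour cells were the sixth of the 7 classes in both libraries, above B cells, and in KO not apart from T cells (121 to 128 and 125 to 139 CPM). In the annotation Tapbp overlaps Zbtb22 and the antisense gene Gm19412, and the sources used here do not say whether counting used strand.

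Psmb8 (chr17:34197721-34201454) and Psmb9 (chr17:34181987-34187764) are catalytic subunits of the immunoproteasome, and with Tap1 and Tap2 they fill a stretch of 34.3 kb. WT Psmb8 levels were 260 CPM in tumour, 566 in T, 368 in NK, 297 in B, 390 in macrophage, 1050 in dendritic and 95.3 in fibroblast cells. KO Psmb8 levels were 296, 440, 378, 410, 469, 942 and 87.7 CPM. WT Psmb9 levels were 92.9, 240, 148, 238, 178, 448 and 36.1 CPM in that order, and KO Psmb9 levels 110, 196, 167, 172, 206, 438 and 38.5 CPM. The order was alike for the pair, with dendritic cells highest, tumour cells sixth and fibroblasts lowest in both libraries. Tumour cells held 1.45 (WT) and 1.75 (KO) log2 units more Psmb8 than fibroblasts, with intervals of 1.17 to 1.74 and 1.41 to 2.13, while their log2 ratio over dendritic cells was -2.02 and -1.67. Psmb9 and Tap1 start 225 bases apart on opposite strands in RefSeq, and Tap1 did not share the place of Psmb9 above fibroblasts.

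Psme2 (chr14:55587441-55591113) encodes the beta subunit of the PA28 activator. WT Psme2 levels were 284 CPM in tumour, 411 in T, 270 in NK, 29.7 in B, 403 in macrophage, 906 in dendritic and 132 in fibroblast cells. KO Psme2 levels were 308, 434, 362, 237, 594, 1034 and 165 CPM. Tumour cells were close to NK cells in WT (intervals 280 to 289 and 253 to 287 CPM) and well above fibroblasts in both libraries. Psme2 has a near-identical copy, Psme2b, so its counts are uncertain to the extent that reads were split between the copies.

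Nlrc5 (chr8:94434356-94527272), the co-activator of the class I genes, was highest in T cells. WT Nlrc5 levels were 37.8 CPM in tumour, 158 in T, 68.8 in NK, 29.7 in B, 76.3 in macrophage, 99.4 in dendritic and 34.2 in fibroblast cells. KO Nlrc5 levels were 41.8, 129, 56.6, 54.1, 62.2, 118 and 43.8 CPM. Tumour cells and fibroblasts could not be told apart within counting error in either library (36 to 39.7 and 24.1 to 47.2 CPM in WT, 39.8 to 44 and 30.2 to 61.6 CPM in KO).

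Over all 10 members, tumour cells stood below the geometric mean of the other 6 classes for 8 of 10 genes in WT and 9 of 10 in KO. The median of the members was -0.61 in WT and -0.39 in KO on the log2 scale, against -0.30 and -0.11 over the genes tested (at least 50 UMIs in 1 of the classes and a mean of 30 CPM). Of these 5445 and 5242 genes, 59.9% and 53.5% were lower in tumour cells, so the direction alone sets the members apart only in part. In WT 5 members (Tap1, H2-K1, Nlrc5, Psmb9 and B2m) were lower by at least 1.5-fold, beside 40.7% of all genes tested, and in KO 3 (Tap1, H2-K1 and Nlrc5), beside 35.7%. Tumour cells were the lowest of the 7 classes for 3 members in WT (H2-K1, B2m and Tap1), where 19.8% of genes had them lowest, and for 2 in KO (Tap1 and Nlrc5), where 26.3% did. These shares are near those of all genes. The WT reference includes the 9 B cells, in which Tapbp had 2 UMIs and Psme2 and Nlrc5 1 each. Sums under 3 UMIs were set to 3 for this mean. H2-D1 and Psme2, the WT members not below the mean (0.04 and 0.03), stood above these B cells, so the WT count rests partly on 9 cells. Without B cells among the reference classes the medians were -0.68 in WT and -0.53 in KO. With B cells included, what separates members is the spread among them: from -2.09 for Tap1 to 0.04 for H2-D1 in WT and from -1.39 to 0.26 in KO.

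**Figure D2:**
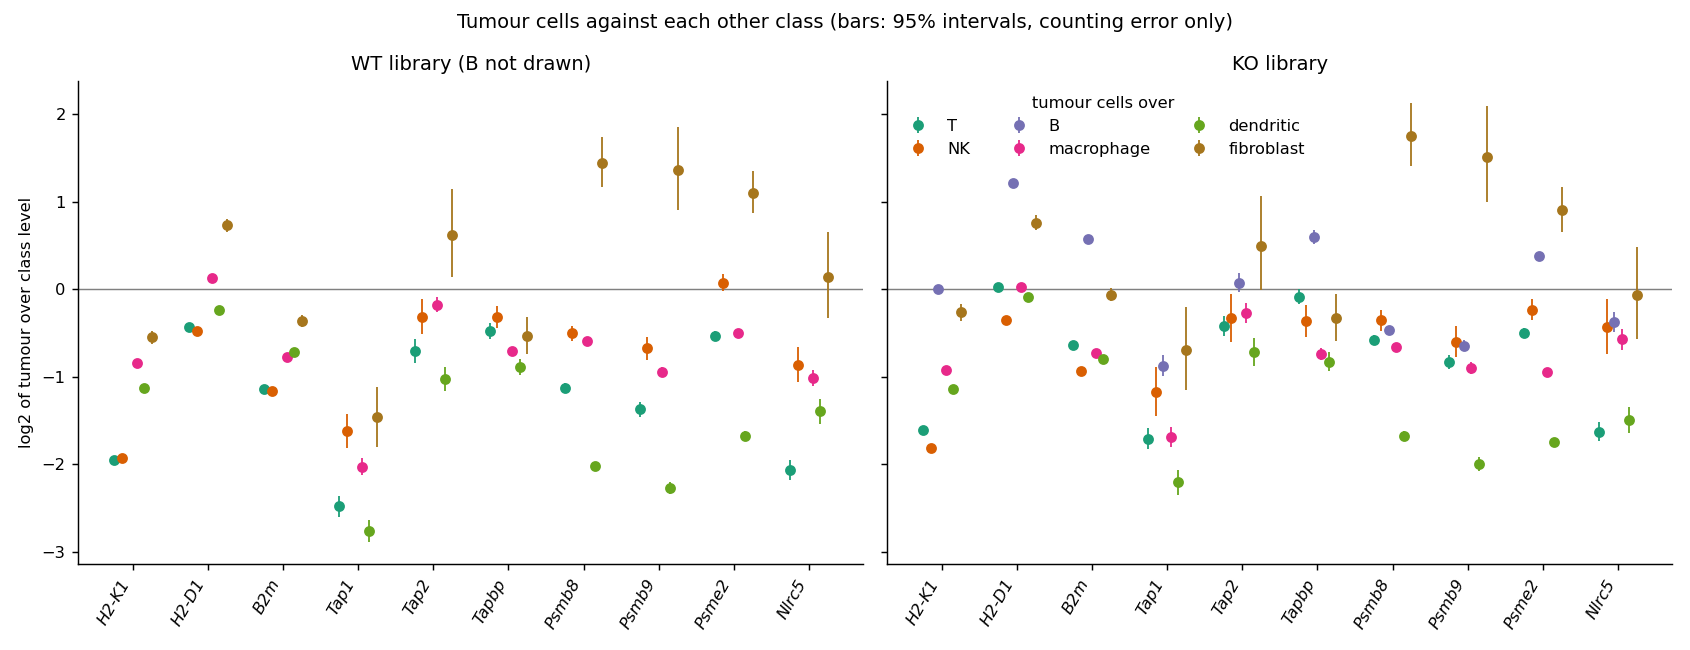
Log2 ratio of the level in tumour cells over each other class, with 1 panel per library, 1 colour per class and bars for the 95% interval of counting error. Points below 0 are lower in tumour cells: all those of Tap1 are (-2.76 to -1.46 in WT without the B cells, -2.20 to -0.70 in KO), while Psmb8 and Psmb9 stand above 0 only against fibroblasts.

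Free RNA of other cells can add to the levels in tumour cells. Of 12 macrophage markers the tumour cells carried a median of 1.15% of the macrophage level in WT and 0.97% in KO, of 11 T markers 0.21% and 0.64% of the T level, and of 8 B markers 0.76% of the B level in KO. Tumour cells held 24.5% (WT) and 31.1% (KO) of the macrophage level of Tap1, the lowest share among the members, and 58.5% and 60.3% for B2m. The highest share of any macrophage marker in tumour cells was 1.52% in WT and 4.85% in KO. The highest share of any dendritic marker was that of Fscn1, at 36.2% and 27.4%.

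Low CPM did not mean few molecules per cell, because tumour cells were deep. A WT tumour cell held on average 25.5 UMIs of H2-K1, 57.7 of H2-D1 and 39.6 of B2m, and a WT T cell 19.5, 15.3 and 17.2. In KO the averages were 21.3, 57.1 and 40.7 in tumour cells and 13.1, 11.3 and 12.7 in T cells. Tap1 averaged 0.715 UMIs per WT tumour cell, 0.786 per T cell and 1.77 per dendritic cell. In KO the Tap1 averages were 0.745, 0.491 and 1.14, so tumour cells held slightly fewer than T cells in WT and more in KO. When each cell was reduced to 2000 UMIs at random, a Tap1 UMI was left in 4.84% (WT) and 6.36% (KO) of tumour cells (41.5% and 41.3% with all UMIs), against 24.5% and 18.2% of T cells (46.3% and 31.8%). For B2m the thinned shares were 90.5% and 95.6% of tumour cells and 99.3% and 99.2% of T cells.

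Between the libraries, every member was higher in KO tumour cells than in WT ones, by small amounts. B2m went from 1432 to 1787 CPM, a log2 ratio of 0.32 (0.30 to 0.33), and H2-D1 from 2085 to 2509 CPM, 0.27 (0.25 to 0.28). Tap1 had the largest ratio, 0.34 (0.22 to 0.46). H2-K1 and Tapbp were nearly level, at 0.02 (0.00 to 0.04) and 0.01 (-0.05 to 0.06). The others lay between 0.12 for Psme2 and 0.25 for Psmb9, with Tap2 at 0.22, Psmb8 at 0.19 and Nlrc5 at 0.15. So the heavy chains differed here too, H2-D1 being higher in KO and H2-K1 nearly level. With cells thinned to 2000 UMIs, H2-K1 was at 0.13 and H2-D1 at 0.30. The median of the 10 was 0.21. Of the 9 members that met the limit of 50 UMIs and 30 CPM (Tap1 fell short at a mean under 30), all 9 were higher, where 47.1% of 4529 genes were and the median of all was -0.02. None of them reached 1.5-fold in either direction, which 1.04% of genes did upwards and 3.71% downwards. Tapbp and Nlrc5 took the other sign in at least 1 of 11 alternative settings (Nlrc5 was at -0.14 with thinned cells), and the other 8 kept theirs in each of these.

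**Figure D3:**
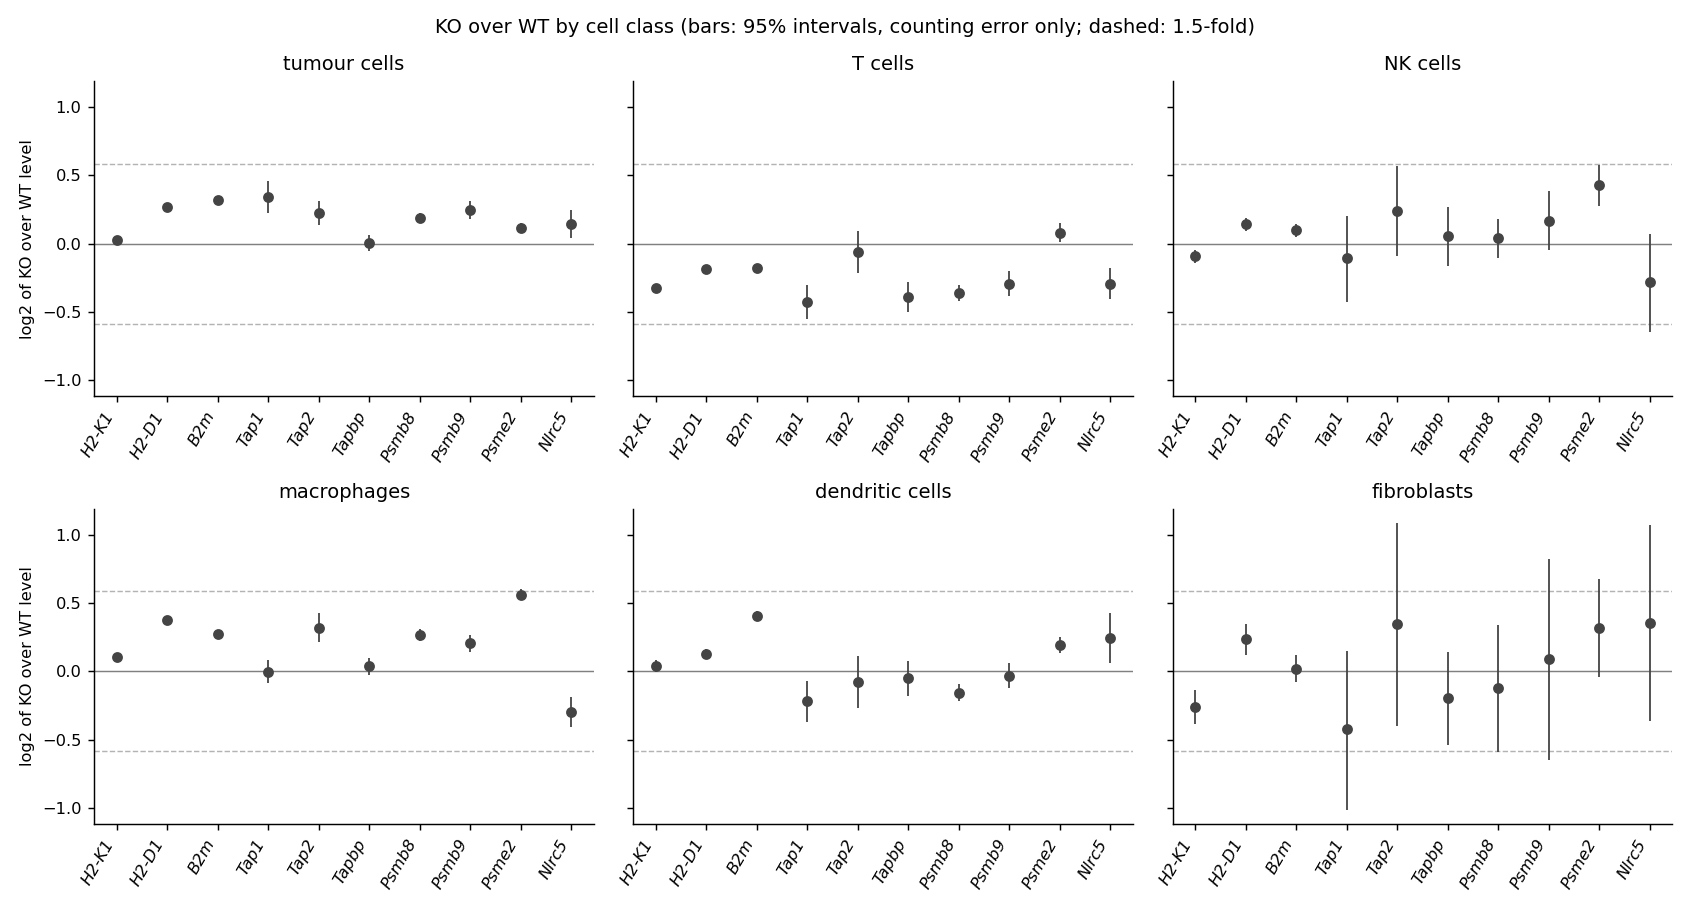
Log2 ratio of KO over WT level for the 10 genes in 6 classes, with bars for the 95% interval of counting error and dashed lines at 1.5-fold; B cells are not drawn because WT held 9. In tumour cells the points run from 0.01 to 0.34, in T cells from -0.43 to 0.08, and no point passes 1.5-fold.

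Most tumour cells, 1579 in WT and 1517 in KO, fell into 4 tumour clusters that the libraries filled unequally. These clusters were therefore also compared within themselves. Another 17 and 65 gated cells lay in other clusters and count in the class levels only. Cluster 3, led by Sema3a and Igfbp4, held 822 WT and 355 KO cells, cluster 6, led by the keratins Krt8 and Krt18, 325 and 593, and cluster 7, led by cell cycle genes such as Top2a and Cdk1, 306 and 530. The fourth, cluster 24, had 126 and 39 cells and was not compared. In cluster 6 all 10 members were higher in KO, with a median of 0.55. H2-K1 was at 746 CPM in WT and 977 in KO, H2-D1 at 1688 and 2479, and B2m at 1181 and 1753. Tap2 went from 36.4 to 61.5 CPM (0.75, interval 0.57 to 0.94) and Psmb9 from 72.1 to 112 CPM (0.64, interval 0.51 to 0.77), the 2 members past 1.5-fold in this cluster, where 1.39% of all genes were. Of the 3 clusters compared, the keratin cluster had the largest median difference between the libraries with all UMIs. Among the 9 members that met the limits 9 were higher, beside 45.2% of 4320 genes. Depth differed strongly there, with medians of 31350 UMIs in WT and 17030 in KO, and with every cell thinned to 2000 UMIs the median was 0.40 and 9 of 10 were higher.

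In cluster 7 all 10 members were higher as well, by a median of 0.26 (47.5% of all genes were higher), and 10 of 10 when thinned. In cluster 3 the median was 0.05 with 7 of 10 higher, and 0.10 with 9 of 10 higher when thinned. Thinned, the medians of clusters 6 and 7 were close, at 0.40 and 0.34. Within cluster 3, H2-D1 (2472 and 3117 CPM, 0.33) and B2m (1617 and 2085 CPM, 0.37) were higher in KO, whereas H2-K1 was slightly lower (1100 and 1049 CPM, -0.07). Of the members that met the limits in cluster 3, 6 of 9 were higher, beside 42.8% of all genes. H2-D1 and B2m were thus higher in each of these 3 clusters, and H2-K1 in clusters 6 and 7. Within the clusters macrophage markers were lower in KO than in WT (177 and 150 CPM in cluster 6), while T and B markers and Igkc were higher (41.9 and 53.3 CPM of T and B markers and 318 CPM of Igkc in KO cells of cluster 6, against 8.65, 7.85 and 0.101 in WT). Their part in the differences was not tested.

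**Figure D4:**
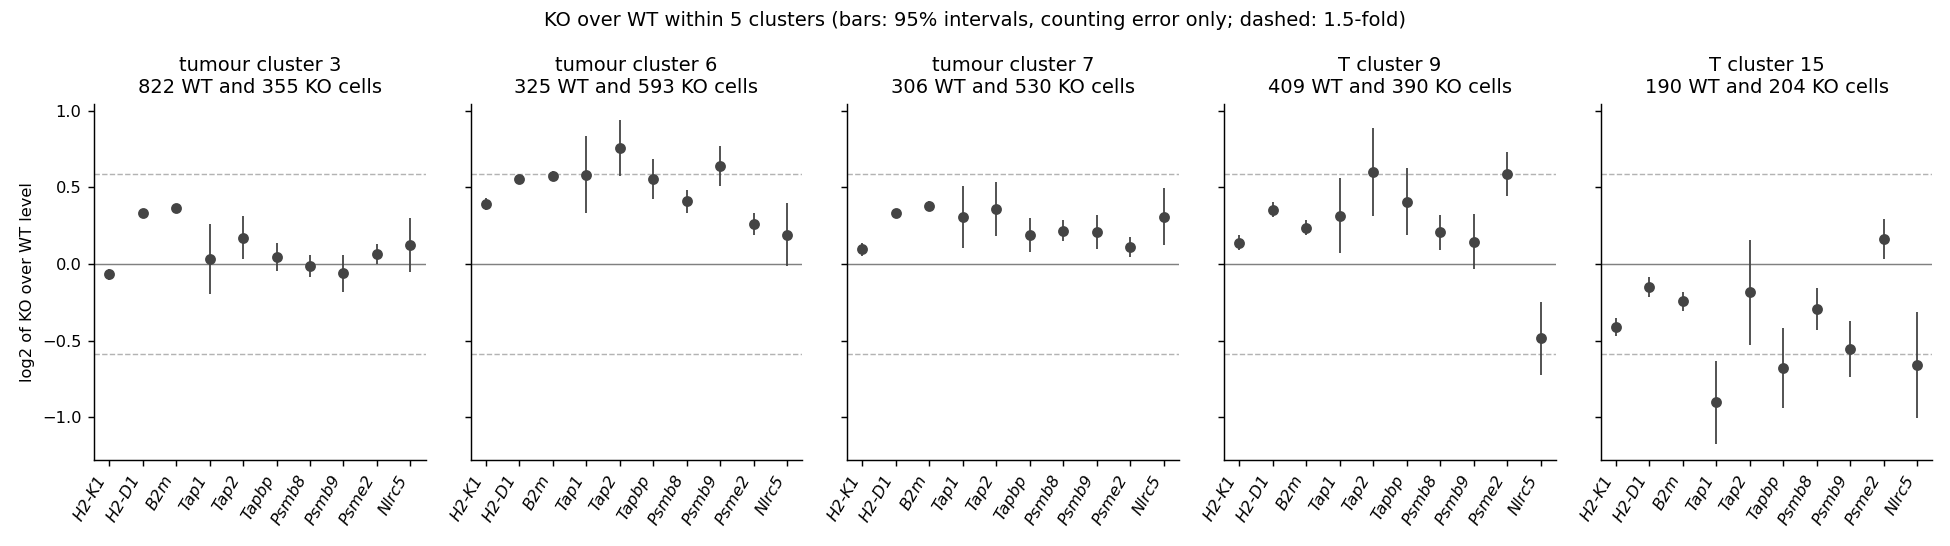
Log2 ratio of KO over WT level within 3 tumour and 2 T-cell clusters, with bars for the 95% interval of counting error and dashed lines at 1.5-fold. In tumour cluster 6 every point is above 0 (0.19 to 0.75), in T cluster 9 only Nlrc5 is below 0 (-0.48), and in T cluster 15 only Psme2 is above it (0.16).

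Interferon response genes outside presentation differed more between the libraries in the same tumour cells. All 25 listed genes were higher in KO tumour cells, with a median of 0.78, and 15 were past 1.5-fold. Over all 14323 genes with at least 20 UMIs in 1 of the libraries, 44.9% were higher, 7.04% were past 1.5-fold upwards and the median was -0.04. The highest were the chemokine Cxcl9 (20.4 and 82 CPM, 2.01) and Ifit1 (2.17 and 6.44 CPM, 1.57), and the lowest Ifi35 (46.7 and 50.3 CPM, 0.11) and Rnf213 (47 and 51.3 CPM, 0.13). The members' median of 0.21 was thus well under that of this list. In cluster 6 all 25 were higher (median 1.11), in cluster 7 24 (1.15) and in cluster 3 20 (0.31), beside 49.2%, 49.2% and 44.3% of all genes with that many UMIs. Cluster 3 was thus the lowest of the 3 for the list as for the members. In NK cells 14 of 20 measured genes of the list were higher in KO and 7 were past 1.5-fold, with a median of 0.35, where 43.3% of all genes were higher and 5.49% past 1.5-fold upwards. In macrophages 15 of 25 were higher, with a median of 0.12 (44.2% of all genes were higher), and in dendritic cells 22 of 25 were lower, with a median of -0.28 (54.1% of all genes were lower). Cxcl9 is abundant in macrophages (718 and 1185 CPM), and its part from free RNA in tumour cells was not tested.

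Within each library, tumour cells with more interferon response RNA also had more RNA of most members. Cells thinned to 2000 UMIs were set in 4 groups by their UMIs of 23 of these genes (without Cxcl9 and Cxcl10): 0, 1 to 2, 3 to 5, and 6 or more. They held 415, 756, 340 and 80 WT cells and 289, 728, 392 and 147 KO cells. Tap1 went from 15.7 through 21.2 and 32.4 to 75 CPM in WT and from 10.4 through 28.2 and 40.8 to 81.6 CPM in KO, and each group was above the one before, although the intervals of neighbours overlapped. B2m went from 1186 through 1437 and 1646 to 2119 CPM in WT and from 1682 through 1822 and 1968 to 2058 CPM in KO. At 0 interferon UMIs, 4 members were higher in KO with intervals that did not overlap, B2m, H2-D1 (1778 and 2324 CPM), H2-K1 (708 and 934 CPM) and Psmb8 (166 and 237 CPM), while Tap1 intervals overlapped between the libraries in all 4 groups. H2-K1 went from 708 to 1188 CPM in WT but from 934 to 980 in KO, with 1108 in the group before. The highest WT group also held more macrophage markers (975 CPM, against 196 in the lowest), and the KO groups 653 and 433 CPM, and the part of these in the differences was not tested.

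**Figure D5:**
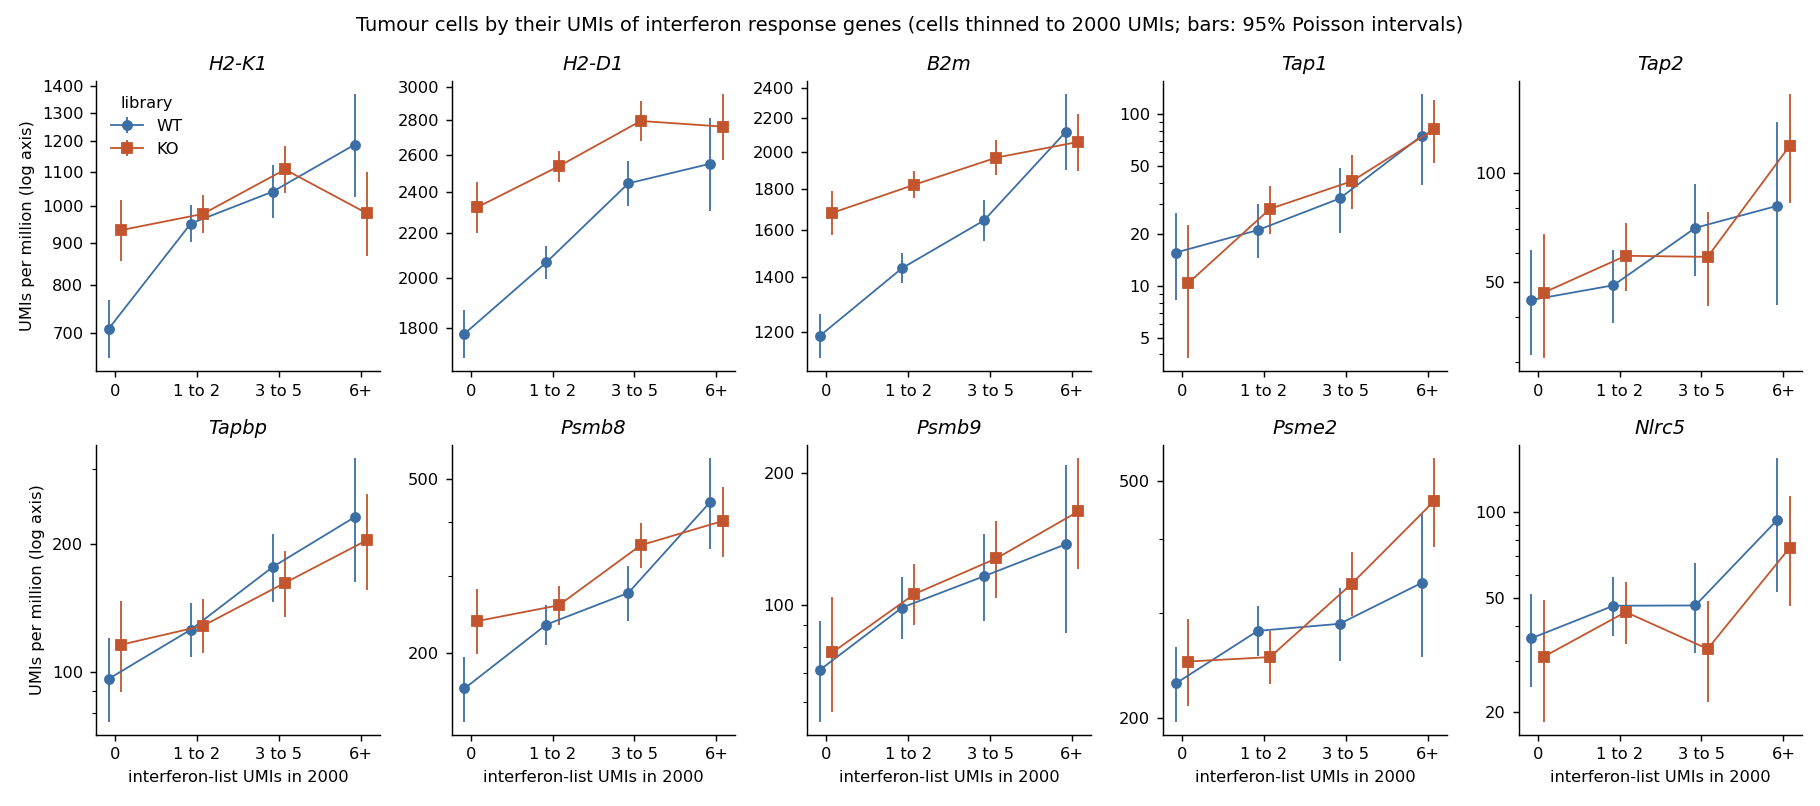
Level of each gene (CPM on a log axis) in tumour cells set in 4 groups by their UMIs of 23 interferon response genes, all cells thinned to 2000 UMIs, with bars for the 95% Poisson interval. Tap1 runs from 15.7 to 75 CPM in WT and from 10.4 to 81.6 in KO, with the libraries overlapping, while B2m starts higher in KO (1682 against 1186).

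T cells had the opposite direction between the libraries. In all, 9 members were lower in KO, with Psme2 (411 and 434 CPM) as the exception, and the median was -0.29. Tap1 was at -0.43 (-0.55 to -0.30), Tapbp at -0.39 (-0.50 to -0.28), Psmb8 at -0.36 (-0.42 to -0.30) and H2-K1 at -0.32 (-0.35 to -0.30). Of all genes tested in T cells 36.3% were higher and their median was -0.09. None of the 10 passed 1.5-fold, beside 2.71% of genes upwards and 9.55% downwards. The T class was made of different cells in the libraries. Cluster 10, whose leading genes include Lef1 and Tcf7, transcription factors of resting T cells, had 21 WT and 682 KO cells and low levels (H2-K1 at 2026, Psmb8 at 228 and Psme2 at 220 CPM in KO).

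Within clusters the T cells differed from each other. Cluster 9, led by the CD8 chains Cd8b1 and Cd8a with Gzmb among its top genes, had 409 WT and 390 KO cells, and 9 of 10 members were higher in KO, with a median of 0.27, where 45.1% of all genes were higher. There H2-D1 was at 2801 and 3579 CPM (0.35), B2m at 3158 and 3714 (0.23), Tap2 at 83.9 and 127 (0.60) and Psme2 at 328 and 493 (0.58). Nlrc5, the co-activator, was lower, at 179 and 128 CPM (-0.48, interval -0.73 to -0.25). CD8 is the co-receptor that binds class I on other cells. The levels here are those of the CD8 cells themselves, in which the heavy chains and B2m were higher in KO. Cluster 15, with Ctla4, Il2ra and the regulatory T-cell factor Foxp3 among its top genes, had 190 and 204 cells. Most members went the opposite way from cluster 9. There 9 of 10 were lower and the median was -0.35, where 41.3% of all genes were higher. Tap1 was at 258 and 138 CPM (-0.90, interval -1.17 to -0.63), Tapbp at 256 and 160 (-0.68) and Psmb9 at 482 and 329 (-0.55). Nlrc5 was lower as in cluster 9 (145 and 92 CPM, -0.66), and Psme2 was higher in both clusters. Thinned to 2000 UMIs the medians were 0.25 in cluster 9 and -0.38 in cluster 15. Macrophage markers differed in the same directions, at 1159 and 1803 CPM in cluster 9 and 679 and 364 CPM in cluster 15 of WT and KO, and their part in the results was not tested. T clusters 11, 14 and 22 had medians of -0.15, -0.29 and -0.11. Nlrc5 was lower in KO in each of these too, at -0.36, -0.39 and -1.03.

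Macrophages had 8 members higher in KO, with a median of 0.24, where 40.1% of 4644 genes were higher and the median of all was -0.05. Psme2 went from 403 to 594 CPM (0.56, interval 0.52 to 0.60), H2-D1 was at 0.37 (0.36 to 0.39), Tap2 at 0.32 (0.21 to 0.43) and B2m at 0.28 (0.26 to 0.29). Nlrc5 was lower (76.3 and 62.2 CPM, -0.30, interval -0.41 to -0.19) as it was in T cluster 9. No member passed 1.5-fold, beside 0.581% of genes upwards and 2.02% downwards. From WT to KO macrophages, markers of B cells went from 13 to 136 CPM, those of T cells from 18.9 to 69.1 and Igkc from 0.978 to 595, and their part in the differences was not tested. The medians of the 6 macrophage clusters with at least 50 cells in each library ran from 0.11 to 0.38.

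NK cells had 7 members higher and 3 lower, with a median of 0.08, where 42.8% of genes were higher. Psme2 stood out, at 270 and 362 CPM (0.43, interval 0.28 to 0.58), and no member passed 1.5-fold (2.55% of genes upwards, 8.75% downwards). Dendritic cells, the class with the highest immunoproteasome levels, had 5 higher and 5 lower and a median of 0.00, where 41.3% of genes were higher. Over the whole class B2m was higher (2352 and 3115 CPM, 0.41) and Tap1 lower (175 and 151 CPM, -0.22, interval -0.37 to -0.07). Again none passed 1.5-fold (2.62% upwards, 5.79% downwards). Within dendritic clusters 13 and 16, B2m was at 0.225 and 0.337. Tap1 was about level in cluster 13 (-0.06, interval -0.23 to 0.11) and lower in cluster 16 (-0.62, interval -0.93 to -0.32). Cluster 16 made up 31.1% of the class in WT and 37.5% in KO, and the part of this was not tested. B markers were higher in KO in both classes, at 1.71 and 64 CPM in NK and 0.187 and 184 CPM in dendritic cells. So were T markers in dendritic cells (41.2 and 129 CPM) and Igkc (0 and 1129 CPM in NK, 1.12 and 577 in dendritic cells). The part of these markers was not tested. Fibroblasts had 108 and 120 cells and 3 of the 7 members that met the limits higher, where 40.5% of genes were, and none past 1.5-fold (5.16% upwards, 11.5% downwards). Most of their intervals span 0, except those of H2-K1 (1346 and 1124 CPM, -0.26) and H2-D1 (1258 and 1480 CPM, 0.23). The H2-K1 difference in fibroblasts did not keep its sign, being 0.14 as a mean over cells and 0.0093 with thinned cells. KO fibroblasts also held 1866 CPM of erythroid markers, against 4.63 in WT, and the part of these was not tested. H2-D1 was higher and Nlrc5 lower in KO in macrophages and NK cells alike, but the Nlrc5 interval in NK cells spanned 0 (-0.64 to 0.07).

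Genes of the pathway outside the 10 members were read from lists of the same processes. Of 15 nonclassical class Ib genes 9 could be measured in tumour cells, and all 9 were higher in KO, with a median of 0.49, beside the 44.9% of all genes given above. H2-T23, which encodes the ligand Qa-1 of inhibitory receptors on NK and T cells, was at 19.6 and 34.5 CPM (0.82) and H2-Q6 at 12.7 and 19.1 (0.58), with Mr1 (0.04) and H2-M3 (0.27) the lowest. Against the geometric mean of the other 6 classes, tumour cells were lower for 12 of 12 measured class Ib genes in WT and 10 of 12 in KO, with medians of -2.38 and -1.76, where 67.5% and 54.5% of all genes were lower. The WT mean includes the 9 B cells. Without B cells 11 of 12 were lower in each library, Mr1 being the exception, with medians of -2.13 and -1.90, beside 54.4% and 54.5% of all genes. Single classes could still lie below tumour cells, as macrophages did in WT for H2-T22 (78.9 CPM in tumour, 50.2 in macrophage cells). The 14 constitutive proteasome core genes went the other way, 13 of 14 in WT and 14 of 14 in KO being higher in tumour cells than in the mean of the others (medians 0.80 and 0.74, where 32.5% and 45.5% of all genes were higher), and they were about level between the libraries (median 0.08). Of the 8 transport and loading genes 6 were higher in KO tumour cells, Tapbpl (0.55) and Tap1 (0.34) most, with Canx (-0.11) and Pdia3 (-0.04) lowest.

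Across the 14 points given by 7 classes and 2 libraries, the genes most like the mean pattern of the members were Traf1 (r = 0.95), a signalling adaptor of TNF receptors, Epsti1 (0.94) and the chemokine Ccl5 (0.92), followed by 7 genes down to r = 0.90, out of 5136 genes compared. The points share libraries and depth, and the coefficients are descriptions. Among the points are the 9 WT B cells, where Psme2 and Nlrc5 had 1 UMI each. Traf1, for example, was at 44.5 and 48 CPM in tumour, 422 and 286 in T, 341 and 369 in NK and 694 and 642 in dendritic cells of WT and KO. Among the members themselves Nlrc5 (0.86) and Psmb8 (0.85) were nearest to the common pattern and Tapbp (0.57) the farthest. Each member is part of the mean it was compared with, so these values cannot be set against those of the genes outside.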

How the data were processed

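The deposited files hold raw UMI counts per gene and cell, 1 matrix per library. Per the submitters' processing notes Cell Ranger 6.0.1, Seurat 4.0.3 and 4.0.4 and mm10 were used, but per the file headers of the matrices the version was Cell Ranger 8.0.1. The sources used here name neither the annotation release nor the strand setting. The libraries held 9890 (WT) and 12744 (KO) barcodes with 113873249 and 101532711 UMIs. Cells needed 200 genes or more and no more than 20% of UMIs from mitochondrial genes (9765 and 12636 passed), and the highest doublet scores, 0.8% per 1000 cells, were left out (763 and 1277), because the automatic limit marked 141 and 0. Cells were clustered together (scanpy 1.11.5, leidenalg 0.10.2, 2000 variable genes, 30 components, resolution 1). Of 33 clusters 31 were named from fixed markers, with naming limits chosen after the clusters were seen. UMIs were summed per library and class. Levels have exact Poisson intervals and log2 ratios exact conditional ones (scipy 1.17.1), and the code was tested on simulated data. No test was made, since each genotype had 1 library. Named are all 10 members and, from each pathway list, the 2 highest and 2 lowest ratios at most. Leading genes of clusters and genes of similar pattern are named beside these. Ratios of list genes needed 20 UMIs in 1 of the sums, and cluster comparisons 50 cells in each library. Members and lists were chosen with earlier results of these data known. Alternatives changed cell filters, doublets, resolution, gates, depth and scaling. Means over clusters and a reference without B cells were added after seeing the data.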

Additional observations from a re-analysis of the deposited data

How the results depend on the processing

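Medians below are log2 values over the 10 members. The T-cell median of -0.29 was -0.15 with marker gates per cell, -0.17 without mitochondrial, ribosomal, haemoglobin, Ig and TCR genes in the CPM, and -0.17 as a mean of the T clusters. The fibroblast median of 0.06 was 0.38 as a mean over cells of per-cell CPM. Tumour over the other 6 classes in WT was -0.44 without those gene families and -0.45 as a mean over cells, against -0.61. In KO it was -0.27 without those families and -0.53 without B cells in the reference, against -0.39. As means of clusters, the macrophage median was 0.31 and the dendritic median -0.074. The cause was not tested. Values past 1.5-fold changed sign only in comparisons with the 9 WT B cells. For KO over WT in B cells, Tap2 was 0.33 and Nlrc5 -0.44 with no doublets removed, and Psme2 was -0.27 and Nlrc5 -2.02 with cells thinned to 2000 UMIs. For tumour over B cells in WT, Tap2 was 0.16 with no doublets removed and 0.00066 with median-ratio scaling, and Tapbp was -0.90 when thinned. Smaller values whose interval left out 0 also changed sign. Outside B cells these were, for KO over WT, Nlrc5 in tumour cells (-0.14, thinned), Psme2 in T cells (-0.0044, mean over cells) and H2-K1 in fibroblasts (0.14, mean over cells, and 0.0093, thinned). For tumour over another class they were Tap2 over NK cells (0.05, thinned) and over macrophages (0.09, without the gene families) in WT, and in KO H2-D1 over T cells (-0.09, marker gates), macrophages (-0.13, median-ratio scaling) and dendritic cells (0.07, without the families) and H2-K1 over fibroblasts (0.0070, without the families). Over 11 alternative settings and the mean of clusters the tumour median for KO over WT lay between 0.20 and 0.26. With a limit of 20 UMIs alone, more genes passed 1.5-fold in tumour cells, 7.04% upwards and 10.4% downwards, and in macrophages 4.88% and 7.21%. In T cells 7.31% passed upwards and 13.6% downwards, in NK cells 5.49% and 12.8%, in fibroblasts 9.17% and 14.1%, and in dendritic cells 8.38% and 8.80%. No paired analysis was possible because each genotype has 1 library. Depth limits Tap1, Tap2 and Nlrc5 most, and B cells in WT and fibroblasts in both libraries.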

Other observations

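Among T cells the interferon receptor chain Ifngr2 was higher in KO (28.2 and 67.7 CPM, 1.26 on the log2 scale), and Ifngr1 had a ratio of -0.46. Of all genes with at least 20 UMIs there, 7.31% were past 1.5-fold upwards. The T class differed in make-up, with 21 WT and 682 KO cells in cluster 10, and the part of this was not tested. The 14 constitutive proteasome core genes were all higher in KO NK cells (median 0.16), where 43.3% of all genes were higher and the median of all was -0.07. They were all lower in KO dendritic cells (median -0.12), where 54.1% of all genes were lower and the median of all was -0.04. In tumour cells Ifngr1 lay furthest below the mean of the other classes among 17 regulators of the pathway. It was at -3.55 in WT and -3.08 in KO, followed by the kinase Jak2 at -2.49 and -2.79. The WT mean includes the 9 B cells. Against dendritic cells and fibroblasts alone Jak2 was the lowest in both libraries. The partner chain Ifngr2 was higher in tumour than in NK cells, at 3.68 in WT and 4.11 in KO. Over T cells Ifngr2 was at 0.86 in WT and lower than in T cells in KO. Without B cells 13 of the 17 regulators were lower in each library, beside 54.4% and 54.5% of all genes. Within T cells the interferon response list had a median of 0.50 in cluster 9 and -0.50 in cluster 15. These were the signs of the class I members there. In T clusters 11, 14 and 22 the list was at -0.15, -0.66 and -0.81, again with the sign of the members. Outside T cells the signs could differ. The list was at -0.09 and -0.08 in macrophage clusters 4 and 28, where the members were at 0.34 and 0.38. It was at -0.33 in fibroblast cluster 20 (members 0.06) and 0.0004 in dendritic cluster 16 (members -0.13). These medians were not set against all genes.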
